A study of Mus musculus with 18 samples.

Results

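The fatty acid elongases and desaturases described here are 8 genes of mouse liver, Elovl1, Elovl2, Elovl3, Elovl5, Fads1, Fads2, Fads3 and Fads6. They are the rows of the deposited count table that carry these symbols, 8 of 52636 gene IDs, and were chosen by symbol. All 8 passed the filter on low counts. Counts came from RNA sequencing of 18 livers, 3 biological replicates in each of 6 groups, harvested 8 hours after lights on (ZT8). H-KO and H-WT livers carried a conditional allele of Hnf4a (Hnf4atm1.1Gonz), a nuclear receptor gene of hepatocytes, and were 10 weeks old. BH-KO and BH-WT livers carried in addition a conditional allele of Arntl (Arntltm1Weit), the clock activator also called Bmal1, and were 10 weeks old as well. The BH-HF-KO and BH-HF-WT groups belonged to the BH line, were 45 weeks old and had been on high-fat food for 35 weeks, beginning at 10 weeks. Every group, WT included, had a tamoxifen-activated Cre at the albumin gene in its strain label (Albtm1(cre/ERT2)Mtz), which is active in hepatocytes, and was given tamoxifen in corn oil (10 mg/mL) on 5 days when 8 weeks old. WT and KO mice of a setting share a strain label, and the labels do not say how the WT mice were made.

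Elongases of the Elovl family sit in the endoplasmic reticulum and carry out the first, rate-setting step of each cycle that lengthens an acyl chain. Fads1 and Fads2 are front-end desaturases that place double bonds with the help of cytochrome b5. In the liver, which exports these lipids to other tissues, Fads2, Elovl5, Fads1 and Elovl2 act in turn on dietary linoleic and alpha-linolenic acid and yield arachidonic acid and the precursors of docosahexaenoic acid. Elovl1 and Elovl3 lengthen saturated and monounsaturated chains instead. Elovl3 is known in mouse liver for a daily rhythm and for higher levels in males, and is abundant in brown fat. Fads3 has been linked to the sphingoid bases of ceramides, and the substrate of Fads6 is not settled.

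Libraries held 6846471 to 9816124 counts, and values are CPM, the field's usual unit of counts relative to library total, here TMM-scaled. A count of 0 allows up to 3 counts, which was 0.264 to 0.479 CPM depending on the library, counting error only. Hnf4a, counted over the whole gene, was 564, 657 and 555 CPM in H-KO livers, against 801, 887 and 580 CPM in H-WT livers. It was 866, 499 and 494 CPM in BH-KO livers, against 788, 888 and 770 CPM in BH-WT livers, and 842, 977 and 818 CPM in the libraries labelled BH-HF-KO, against 767, 781 and 839 CPM in BH-HF-WT livers. Counts over a whole gene do not show whether an exon is missing. A pair of libraries stood apart. BH-KO library 1 had a TMM factor of 0.88, against 1.25 and 1.3 in BH-KO libraries 2 and 3, and a summed level of hepatocyte markers of 74100 CPM, against 35800 and 28400 CPM. H-WT library 3 had 1080 CPM of Xist, a transcript of females, while the highest value in any other library was 3.89 CPM. Gene-level Arntl was 17.4, 22.3 and 24 CPM in BH-KO livers and at most 2.6 CPM elsewhere, livers labelled BH-HF-KO included. Nr1d1, a clock target of Arntl, was 6.97, 6.07 and 5.63 CPM in BH-KO livers, against 129, 111 and 121 CPM in BH-WT livers, and 62.4, 81.5 and 67.0 CPM in the libraries labelled BH-HF-KO, against 55.6, 22.1 and 55.2 CPM in BH-HF-WT livers. The libraries labelled BH-HF-KO thus did not carry the Arntl and Nr1d1 levels of BH-KO livers, which bears on every direction drawn from them. Their Alb was 29800, 33600 and 41300 CPM, against 74200, 90700 and 71800 CPM in BH-HF-WT livers. Age and diet also differ between BH-HF and BH livers, and whether these libraries match their label was not tested. In bulk liver, fewer cells of a type and less RNA per cell cannot be told apart.

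Per kilobase of exon, the polyunsaturated pathway made up most of the family's transcripts. The median over 18 libraries was 159 CPM per kb for Elovl2, 121 for Fads1, 94.1 for Fads2 and 91.7 for Elovl5. Fads6 had a median of 26.5 CPM per kb, Elovl1 of 9.6, Elovl3 of 4.86 and Fads3 of 4.04. Across libraries, the highest CPM was 2.63 times the lowest for Elovl1, 3.32 times for Elovl2, 3.52 times for Fads1 and 4.48 times for Elovl5. The spread was wider for Fads6 (6.51 times), Fads3 (19.6 times) and Fads2 (33.0 times), and Elovl3 ran from no count in BH-WT library 2 to 171 CPM in BH-KO library 1.

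**Figure D1:**
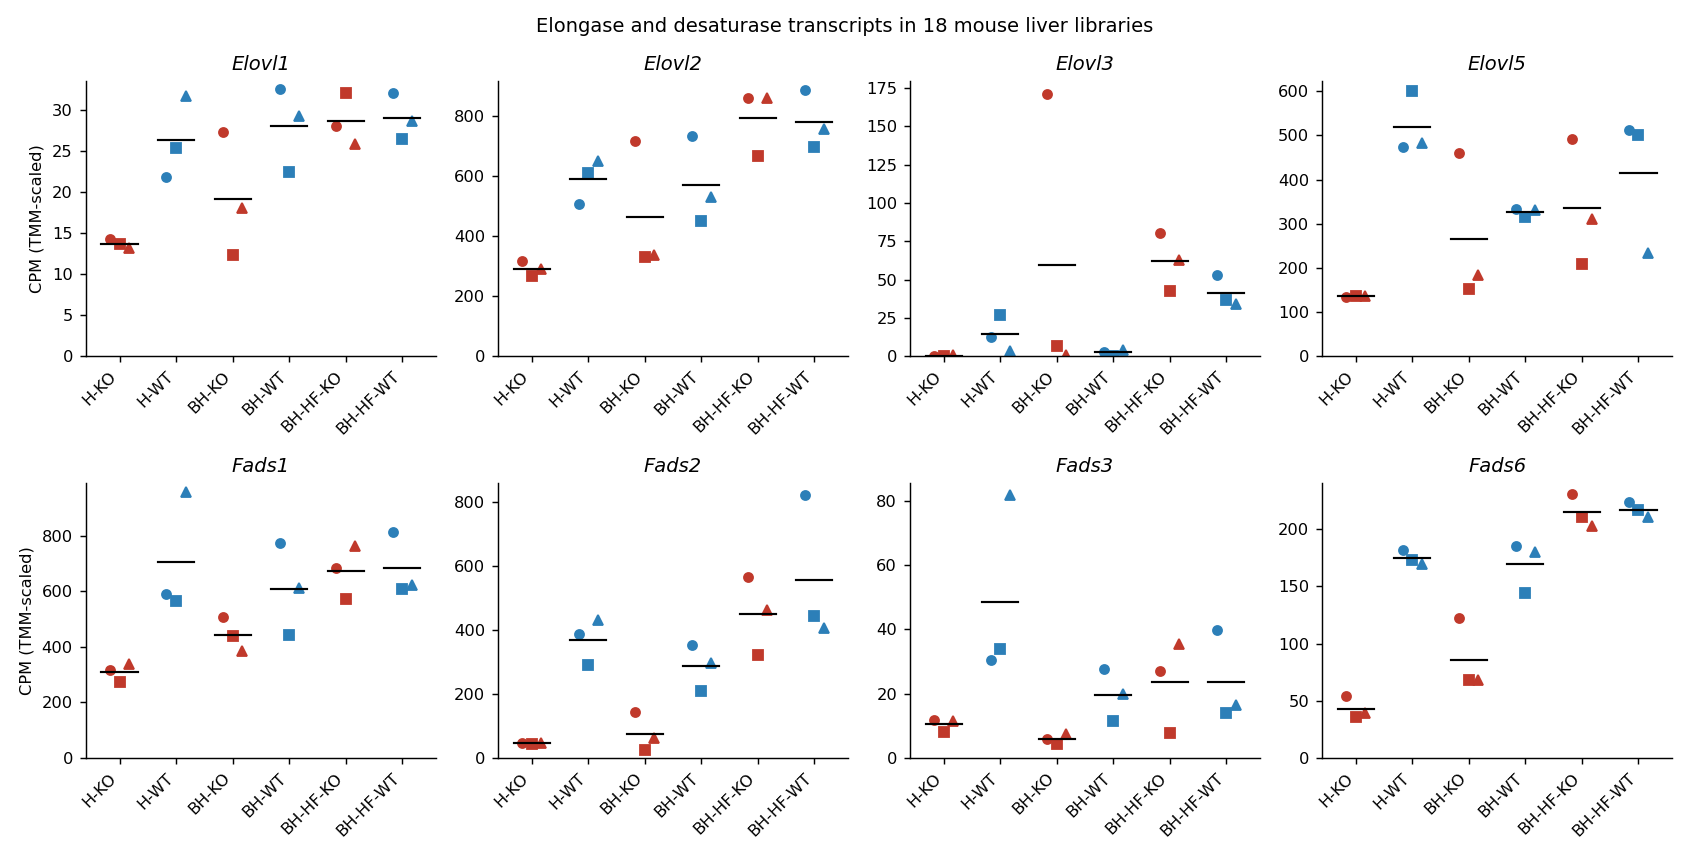
CPM (TMM-scaled, linear axes from 0) of the 8 genes in each of the 18 libraries, with the 3 replicates of a group as circle, square and triangle for libraries 1, 2 and 3 and the group mean as a black line. KO groups are red and WT groups blue; the H-KO points lie below the H-WT points in all 8 panels, and BH-KO library 1 is the highest Elovl3 point at 171 CPM.

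Fads3, Fads2 and Fads1 are neighbours on mouse chromosome 19 (mm10), where Fads3 spans 10041569 to 10060110, Fads2 10062765 to 10101746 on the opposite strand and Fads1 10182888 to 10196877. The gap between Fads3 and Fads2 is 2654 bases and that between Fads2 and Fads1 81141 bases. Elovl3 lies on the same chromosome at 46131897 to 46135694. Elovl1 is on chromosome 4 (118428093 to 118432953), Elovl2 on chromosome 13 (41182381 to 41220405), Elovl5 on chromosome 9 (77917364 to 77984519) and Fads6 on chromosome 11 (115279622 to 115297663). Exons of Elovl1 overlap those of Cdc20 and exons of Elovl3 those of Pitx3, each on the opposite strand. Cdc20 reached at most 53 counts and Pitx3 at most 9 counts in a library, and whether counting used strand is not stated in the sources at hand.

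Promoter sequences were available for 6 of the 8 genes in RefSeq's table (GRCm38.p6), each from 250 bases before to 50 bases after a start. Fads2 and Fads6 are shown because both fell in KO livers of both 10-week lines, in BH livers also without BH-KO library 1, which Fads3 did not, and Elovl5 because its promoter holds the E-box bound by Arntl's family of factors. Each is written on the strand of its gene. Fads2 is chr19:10101454-10101753 (minus strand), Fads6 chr11:115297513-115297812 (minus strand) and Elovl5 chr9:77917115-77917414 (plus strand). Capitals mark matches, on either strand, to the motifs spelled out after the sequences.
Fads2: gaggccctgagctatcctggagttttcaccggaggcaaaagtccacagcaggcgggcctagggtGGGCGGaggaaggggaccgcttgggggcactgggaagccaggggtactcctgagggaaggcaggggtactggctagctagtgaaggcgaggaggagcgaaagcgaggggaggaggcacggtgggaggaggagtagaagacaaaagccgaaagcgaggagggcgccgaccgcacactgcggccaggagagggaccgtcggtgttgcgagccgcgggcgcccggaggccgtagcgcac
Fads6: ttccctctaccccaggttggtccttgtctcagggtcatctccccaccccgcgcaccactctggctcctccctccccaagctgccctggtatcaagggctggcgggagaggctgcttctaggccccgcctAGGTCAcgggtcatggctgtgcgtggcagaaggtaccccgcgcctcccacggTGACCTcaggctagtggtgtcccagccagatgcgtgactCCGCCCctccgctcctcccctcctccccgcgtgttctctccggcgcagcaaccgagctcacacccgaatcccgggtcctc
Elovl5: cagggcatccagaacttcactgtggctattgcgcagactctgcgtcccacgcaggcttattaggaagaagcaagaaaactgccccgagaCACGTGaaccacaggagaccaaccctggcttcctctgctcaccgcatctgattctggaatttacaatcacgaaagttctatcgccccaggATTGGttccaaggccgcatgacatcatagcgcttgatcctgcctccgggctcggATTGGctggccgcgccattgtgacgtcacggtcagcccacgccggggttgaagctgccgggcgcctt
The motifs searched were the E-box CACGTG, held by 7.15% of 32851 promoters of this length, the CCAAT box CCAAT (37.4%) and the GC box GGGCGG (35.7%). The others were AGGTCA (16.3%), a single unit of a nuclear receptor site, the D-box TTANGTAA (2.32%), the sterol response element core TCACNCCAC (1.24%) and the HNF4 site CAAAGTCCA (0.475%). Fads2 held a single GC box, 186 bases before the start. Fads6 held the single nuclear receptor unit AGGTCA at 121 and, in the opposite orientation, at 69 bases before the start. It also held a GC box at 30 bases before the start. Elovl5 held the E-box 161 bases before the start and a CCAAT box at 71 and at 17 bases before it. None of the matches in these sequences overlapped another. None of the promoters of Elovl1, Elovl2, Elovl5, Fads2, Fads3 and Fads6 held the D-box, the sterol response element core or the HNF4 site, which says only that these letters are not in these windows. A match is a description of the letters and not of a bound site.

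H-KO livers, compared with H-WT livers, had lower transcripts of all 8 genes. Differences are log2 fold changes ± SE with adjusted p-values from edgeR's quasi-likelihood test and Benjamini-Hochberg adjustment over all 13958 genes tested, and a gene passed below 0.05. Of all genes, 34.9% passed in this comparison and 19.1% passed as lower, so a fall was common among genes at large, while the fall held for 8 of 8 here. The median of the 8 log2 fold changes was -1.98, against 0 over all genes. The H-KO and H-WT ranges did not overlap for any of the 8, against 52.0% of all genes. Under upper-quartile scaling, which shifts the median of all genes by 0.15, the calls over all genes were 3338 higher and 2063 lower, against 2208 higher and 2662 lower under TMM, while 8 of the 8 still passed as lower. Without H-WT library 3 all 8 passed as lower too, where 27.8% of all genes passed and 15.8% passed as lower.

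Along the polyunsaturated pathway the first desaturase moved most. Fads2 was at 47.2, 43.5 and 47.3 CPM in H-KO livers, against 386, 292 and 432 CPM in H-WT livers, and fell 8.04-fold (-3.01 ± 0.49, adjusted p = 0.000435). Elovl5, which elongates its products, was at 134, 137 and 136 CPM in H-KO livers, against 474, 600 and 483 CPM in H-WT livers (-1.94 ± 0.40, adjusted p = 0.00175). The H-KO values of both genes lay close together, with coefficients of variation of 4.75% for Fads2 and 1.07% for Elovl5, and well below every H-WT value. Fads1, the later desaturase, was at 316, 272 and 339 CPM in H-KO livers, against 591, 564 and 957 CPM in H-WT livers (-1.19 ± 0.24, adjusted p = 0.00126). Elovl2, which acts on the longer polyunsaturated chains, was at 316, 266 and 290 CPM in H-KO livers, against 505, 610 and 648 CPM in H-WT livers (-1.02 ± 0.26, adjusted p = 0.00734). The highest Fads1 value belonged to H-WT library 3, and without that library the fold change was -0.91 and still passed.

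The other members also separated the groups. Fads6 was at 54.3, 35.5 and 39.0 CPM in H-KO livers, against 182, 173 and 170 CPM in H-WT livers (-2.03 ± 0.21, adjusted p = 1.17e-05), the smallest adjusted p of the 8. Fads3 was at 11.8, 8.09 and 11.5 CPM in H-KO livers, against 30.4, 33.8 and 81.8 CPM in H-WT livers (-2.21 ± 0.57, adjusted p = 0.00822). Its highest value again came from H-WT library 3, without which the difference was -1.62 (adjusted p = 0.045). Elovl1, which makes saturated very long chains for sphingolipids, was at 14.3, 13.6 and 13.2 CPM in H-KO livers, against 21.8, 25.3 and 31.7 CPM in H-WT livers (-0.94 ± 0.22, adjusted p = 0.00451). Elovl3 had 1, 3 and 5 counts in H-KO livers (0.1, 0.324 and 0.486 CPM), against 94, 217 and 25 counts in H-WT livers (12.5, 26.7 and 3.49 CPM), with a fitted difference of -5.49 ± 1.92 (adjusted p = 0.0401), a size that depends on the prior count. That call passed again when H-WT library 3 was left out and was lost when any other library of the comparison was left out (adjusted p 0.0398 to 0.125 over the 6), with limma-voom (adjusted p = 0.324) and with no filter on low counts (adjusted p = 0.107). Summed hepatocyte markers (7 of 8 tested, 5 of which fell) were 22400 to 25200 CPM in H-KO livers and 96500 to 108000 CPM in H-WT livers. Summed cholangiocyte markers were 110 to 171 CPM in H-KO livers and 33.1 to 58.7 CPM in H-WT livers, without overlap. Of the 5 tested, 3 rose, Sox9 (3.60) and Krt7 (2.06) most, against 1 without H-KO library 1 or 3 or H-WT library 1 or 2. In this comparison 34.9% of all genes passed, 19.1% as lower. The part of these markers in the falls was not tested.

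BH-KO livers, compared with BH-WT livers, had lower Fads2, Fads3 and Fads6 and, in 1 library, a high Elovl3. In all, 3 of the 8 fell, 1 rose and 4 did not pass, where 28.6% of all genes passed, 14.2% as lower and 14.4% as higher. The median log2 fold change of the 8 was -0.51, against 0.03 over all genes. Fads2 was at 142, 24.9 and 61.5 CPM in BH-KO livers, against 354, 210 and 298 CPM in BH-WT livers (-1.92 ± 0.47, adjusted p = 0.00881). Fads6 was at 122, 67.7 and 67.7 CPM in BH-KO livers, against 185, 144 and 180 CPM in BH-WT livers (-0.99 ± 0.20, adjusted p = 0.00254). Fads3 was at 5.79, 4.18 and 7.30 CPM in BH-KO livers, against 27.6, 11.4 and 19.9 CPM in BH-WT livers (-1.76 ± 0.60, adjusted p = 0.0412). The groups did not overlap for these genes, 3 of the 8, a share near the 34.9% of all genes. BH-KO library 1 was the highest BH-KO value of Fads2 and Fads6 but not of Fads3. The Fads3 call held when BH-WT library 2 was left out and was lost when any other library of the comparison was left out (adjusted p 0.0395 to 0.142 over the 6). It was lost with limma-voom (adjusted p = 0.113) and with no filter on low counts (adjusted p = 0.112) too. Fitting the BH-KO and BH-WT groups alone, the adjusted p was 0.102 for Fads2 and 0.0661 for Fads6.

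Elovl1, Elovl2, Elovl5 and Fads1 did not pass, and their groups overlapped. Elovl5 was at 461, 152 and 183 CPM in BH-KO livers, against 333, 316 and 331 CPM in BH-WT livers (-0.30 ± 0.38, adjusted p = 0.581). Elovl2 was at 716, 331 and 338 CPM in BH-KO livers, against 732, 449 and 528 CPM in BH-WT livers (-0.30 ± 0.26, adjusted p = 0.397). For both genes BH-KO library 1 lay among or above the BH-WT values, and BH-KO libraries 2 and 3 lay below all of them. Elovl1 was at 27.3, 12.3 and 18.0 CPM in BH-KO livers, against 32.5, 22.4 and 29.2 CPM in BH-WT livers (-0.55 ± 0.22, adjusted p = 0.0715), the same arrangement. Fads1 was at 508, 438 and 384 CPM in BH-KO livers, against 775, 443 and 611 CPM in BH-WT livers (-0.46 ± 0.23, adjusted p = 0.148), with the lowest BH-WT value inside the BH-KO range.

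Without BH-KO library 1, 5 of the 8 fell and none rose, where 41.0% of all genes passed and 21.6% passed as lower. Elovl1 (-0.88 ± 0.19, adjusted p = 0.002), Elovl2 (-0.77 ± 0.19, adjusted p = 0.00524) and Elovl5 (-0.97 ± 0.33, adjusted p = 0.028) then joined Fads2 (-2.73 ± 0.42, adjusted p = 0.000191) and Fads6 (-1.33 ± 0.16, adjusted p = 6.22e-06). Fads1 (-0.57, adjusted p = 0.0766) and Fads3 (-1.76, adjusted p = 0.0731) did not pass. With BH-KO library 1 kept, leaving out BH-WT library 2 brought Elovl1 to -0.70 (adjusted p = 0.0491), and limma-voom with all libraries gave -0.65 (adjusted p = 0.0351). The summed hepatocyte markers of the group were 28400 to 74100 CPM in BH-KO livers and 97300 to 125000 CPM in BH-WT livers. A large part of these sums was Alb, at 13800 to 42200 CPM in BH-KO livers and 73000 to 97500 CPM in BH-WT livers. Of the 7 tested, 1 was higher and 1 lower (1 and 4 without BH-KO library 1), with a median log2 fold change of -0.37. Summed macrophage markers were 40.8 to 115 CPM in BH-KO livers and 131 to 834 CPM in BH-WT livers, and 6 of 8 fell, against 1 without BH-KO library 2 and 2 without BH-KO library 3 or BH-WT library 2. Summed cholangiocyte markers were 103 to 343 CPM in BH-KO livers and 39.9 to 77.2 CPM in BH-WT livers, without overlap. Of the 5 tested, Sox9 (3.81) and Spp1 (2.39) rose, with all libraries and without any 1 of them, and 2 others fell without BH-KO library 1, while the list's median was -1.08. With all libraries 28.6% of all genes passed, 14.2% as lower. The part of these markers in the results was not tested.

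Elovl3 was the exception in direction. It was at 171, 6.74 and 1.06 CPM in BH-KO livers (1152, 71 and 12 counts), against 2.94, 0 and 4.31 CPM in BH-WT livers (21, 0 and 27 counts), and passed as higher (4.67 ± 1.47, adjusted p = 0.0301). BH-KO library 1 was far above every BH-WT value, library 2 was above them by less, and library 3 lay inside their range. Without BH-KO library 1 the difference was 0.75 ± 1.07 (adjusted p = 0.606). The call was also lost without BH-WT library 1 (adjusted p = 0.0776), 2 (0.102) or 3 (0.0623), with limma-voom (3.21, adjusted p = 0.425), with no filter on low counts (adjusted p = 0.0815) and with the BH-KO and BH-WT groups fitted alone (adjusted p = 0.179).

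**Figure D2:**
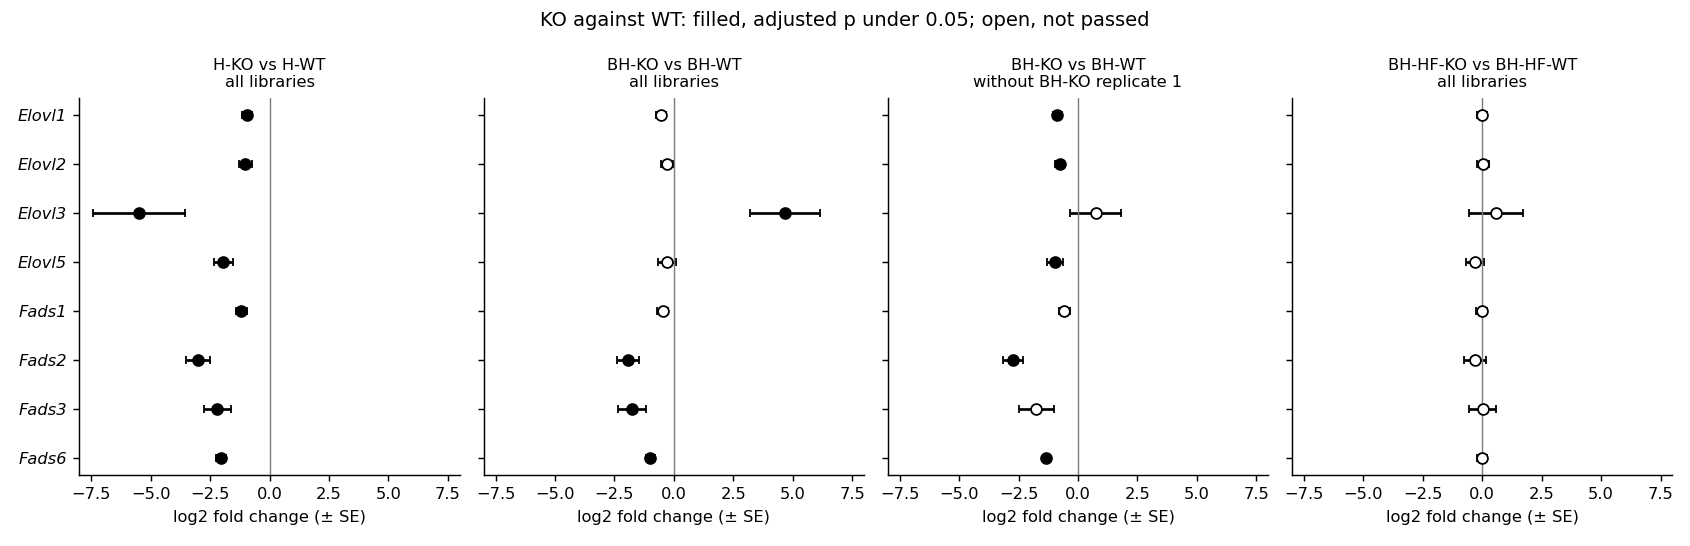
Log2 fold changes of KO over WT (horizontal axis, points with SE bars) for the 8 genes in H, BH, BH without BH-KO library 1, and BH-HF livers, filled where the adjusted p from edgeR was below 0.05. All 8 points are filled and left of 0 in H livers, Elovl3 is at 4.67 in BH livers and at 0.75 without BH-KO library 1, and no point is filled in BH-HF livers.

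None of the 8 genes passed in the libraries labelled BH-HF-KO compared with BH-HF-WT, and 0% of all 13958 genes did. At an unadjusted p under 0.05 the edgeR test held 488 genes (3.50%) and none of the 8, and DESeq2 and limma-voom also called 0 genes. Fads2 was at 567, 322 and 463 CPM in livers labelled BH-HF-KO, against 821, 444 and 407 CPM in BH-HF-WT livers (-0.31 ± 0.45). Elovl5 was at 491, 208 and 310 CPM in livers labelled BH-HF-KO, against 512, 500 and 233 CPM in BH-HF-WT livers (-0.30 ± 0.38). For both genes the spread within each group was larger than the difference between the group means. Elovl3 was at 80.5, 42.5 and 62.5 CPM in livers labelled BH-HF-KO, against 53.1, 36.9 and 34.0 CPM in BH-HF-WT livers (0.58 ± 1.13). Fads6 was at 231, 211 and 203 CPM in livers labelled BH-HF-KO, against 224, 217 and 211 CPM in BH-HF-WT livers (-0.02 ± 0.20), the tightest pair of groups among the 8. Elovl1, Elovl2, Fads1 and Fads3 had differences of -0.02, 0.03, -0.02 and 0.01, with SEs of 0.22, 0.26, 0.23 and 0.55, and overlapping groups. None of the 8 separated the groups, against 10.4% of all genes. Hepatocyte markers summed to 65400 to 76600 CPM in livers labelled BH-HF-KO and 108000 to 131000 CPM in BH-HF-WT livers, without overlap. A large part of these sums was Alb, at 29800 to 41300 CPM in livers labelled BH-HF-KO and 71800 to 90700 CPM in BH-HF-WT livers. The sums thus do not describe the markers as a set. Their median log2 fold change was -0.19, and 0 of the 7 tested passed.

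The KO effect differed between the lines for Elovl3 and Fads6. These are differences of log2 fold changes, the BH effect minus the H effect. Elovl3 gave 10.15 ± 2.39 (adjusted p = 0.0264) and Fads6 1.04 ± 0.28 (adjusted p = 0.0408), so 2 of 8 passed, both as higher, where 6.09% of all genes passed and 3.79% passed as higher. Over all genes 529 differences were higher and 321 lower under TMM, and 427 and 395 under upper-quartile scaling. Fads6 thus fell less in BH-KO livers than in H-KO livers, relative to its own WT group. The other 6 had differences from 0.38 (Elovl1) to 1.63 (Elovl5, adjusted p = 0.0868) and did not pass. Elovl5 passed with DESeq2 (1.63, adjusted p = 0.0346) and without BH-KO library 2 (1.92, adjusted p = 0.0397). The Fads6 call was lost in 8 of 12 fits that left out a library (adjusted p 0.0225 to 0.109), namely any WT library of either line and H-KO libraries 2 and 3. Without BH-KO library 1 Fads6 was at 0.71 (adjusted p = 0.0406). The Elovl3 call was lost in 5 of 12, without BH-WT library 2, H-WT library 2 or any H-KO library (adjusted p 0.00826 to 0.0709), and its difference was 6.24 (adjusted p = 0.0396) without BH-KO library 1. In that fit 8.66% of all genes passed. With all libraries, the Elovl3 call was lost with limma-voom (adjusted p = 0.325), with no filter on low counts (0.0705) and with these 4 groups fitted alone (0.0774), as was that of Fads6 in the last of these (0.103).

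BH-KO and H-KO livers compared directly gave the same pair of genes. These libraries also enter the difference of effects, so the direct comparison is not independent of it. Elovl3 was higher in BH-KO livers (7.52 ± 1.84, adjusted p = 0.0147), at 171, 6.74 and 1.06 CPM against 0.1, 0.324 and 0.486 CPM in H-KO livers, with no overlap. Fads6 was also higher in BH-KO livers (1.0 ± 0.20, adjusted p = 0.0041), at 122, 67.7 and 67.7 CPM against 54.3, 35.5 and 39.0 CPM in H-KO livers. In this comparison 16.4% of all genes passed, 10.1% as higher (1415 higher and 878 lower, or 1076 and 1127 under upper-quartile scaling). The Elovl3 call was lost without BH-KO library 1 (3.60, adjusted p = 0.114), where 14.3% of all genes passed, and without H-KO library 1 (adjusted p = 0.0614), 2 (0.0628) or 3 (0.0569), and with limma-voom (adjusted p = 0.437). With the BH-KO and H-KO groups fitted alone, neither Elovl3 (adjusted p = 0.112) nor Fads6 (0.0866) passed. Without BH-KO library 2, 6 of the 8 passed as higher, adding Elovl1, Elovl2, Elovl5 and Fads2, where 15.2% of all genes passed and 10.0% passed as higher. BH-KO and H-KO values were without overlap in 6 of 8, against 36.1% of all genes. Fads3 was the only one of the 8 with a negative difference (-0.86 ± 0.60, adjusted p = 0.353), lower in BH-KO livers at 4.18 to 7.30 CPM against 8.09 to 11.8 CPM in H-KO livers.

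For the KO effect in BH-HF minus that in BH livers, 0 of the 8 passed, where 6.10% of all genes did (481 higher and 370 lower, or 430 and 549 under upper-quartile scaling), and 4 of the 8 had an unadjusted p under 0.05, against 23.1% of all genes. Fads6 came nearest (0.97 ± 0.28, adjusted p = 0.0529). Fads6 alone was called by DESeq2 (adjusted p = 0.0181), by limma-voom (0.0495) and with upper-quartile factors (0.0498). Without BH-KO library 1, 4 of 8 passed, where 21.1% of all genes did: Elovl1 (0.86, adjusted p = 0.0238), Elovl2 (0.80, adjusted p = 0.0364), Fads2 (2.43, adjusted p = 0.00437) and Fads6 (1.31, adjusted p = 0.000199). In each of these genes the KO difference of BH livers was thus larger downward than that of BH-HF livers in the fit without that library.

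None of the 8 genes passed between WT groups. In BH-WT compared with H-WT livers 0 of 8 passed, where 0.165% of all genes did. Fads3 alone among the 8 had an unadjusted p under 0.05 in edgeR's test, against 9.32% of all genes, and DESeq2 and limma-voom called none of the 8 either. Fads3 (-1.31 ± 0.55, adjusted p = 0.502) and Elovl5 (-0.67 ± 0.39, adjusted p = 0.624) had the lower values in BH-WT livers with no overlap between the groups. That is 2 of the 8, against 14.7% of all genes without overlap. In BH-HF-WT compared with BH-WT livers, where age and diet differ together and cannot be told apart, 0 of 8 passed, where 6.99% of all genes did, and Elovl3 alone had an unadjusted p under 0.05, against 24.3% of all genes. Elovl3 was at 53.1, 36.9 and 34.0 CPM in BH-HF-WT livers, against 2.94, 0 and 4.31 CPM in BH-WT livers (4.16 ± 1.46, adjusted p = 0.0999). The groups lay far apart with no overlap, and the adjusted p was 0.0311 with DESeq2, which called 10.7% of all genes, and 0.0349 with these groups fitted alone. Fads2 (558 ± 229 CPM in BH-HF-WT and 287 ± 73.0 CPM in BH-WT livers) and Fads6 (217 ± 6.71 CPM in BH-HF-WT and 170 ± 22.8 CPM in BH-WT livers, SD, n = 3 each) also did not overlap. Their adjusted p was 0.217 and 0.292 in edgeR's fit. With Elovl3, 3 of the 8 were without overlap, near the share of all genes, 31.0%.

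Fads2 had its means in the order BH-HF-WT (558), BH-HF-KO (451), H-WT (370), BH-WT (287), BH-KO (76.3) and H-KO (46.0 CPM), with the values of neighbouring groups overlapping except between BH-WT and BH-KO. Fads6 ran BH-HF-WT (217), BH-HF-KO (215), H-WT (175), BH-WT (170), BH-KO (85.7) and H-KO (42.9 CPM), and separated without overlap after BH-HF-KO, after BH-WT and after BH-KO. For Elovl2, Elovl5 and Fads1 the last step, from BH-KO to H-KO, was without overlap, and so was the step from BH-HF-WT to H-WT for Elovl2. For Elovl1 every neighbouring pair overlapped. Elovl3 separated only between BH-HF-WT (41.3 CPM) and H-WT (14.2 CPM), and Fads3 only between H-KO (10.5 CPM) and BH-KO (5.75 CPM), which is its lowest group.

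Elovl3 levels in single libraries are set here beside those of genes known to differ between male and female mouse liver. In H-WT livers, library 3 (the one with Xist) had 3.49 CPM of Elovl3, against 12.5 and 26.7 CPM in libraries 1 and 2. Its sum of 11 male-biased genes was 751 CPM, against 2830 and 3170 CPM, and its sum of 12 female-biased genes was 3230 CPM, against 456 and 385 CPM. In BH-KO livers, library 1 was high in Elovl3 and had a male-biased sum of 3720 CPM, against 245 and 233 CPM in libraries 2 and 3. In BH-WT livers, library 2 had no Elovl3 count, the lowest male-biased sum of its group (951 CPM, against 2040 and 2250 CPM) and the highest female-biased sum (2640 CPM, against 1220 and 1200 CPM). Xist was at 0.245 CPM in that library. The order of the libraries was not the same in both measures. BH-KO library 2 had more Elovl3 (6.74 CPM) than BH-WT libraries 1 and 3 (2.94 and 4.31 CPM) with a lower male-biased sum. BH-KO library 1 had more Elovl3 (171 CPM) than any BH-HF library (34.0 to 80.5 CPM), also with a lower male-biased sum.

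Across groups, male-biased sums were 143 to 301 CPM in H-KO livers against 751 to 3170 CPM in H-WT livers, 233 to 3720 CPM in BH-KO livers against 951 to 2250 CPM in BH-WT livers, and 9110 to 11700 CPM in livers labelled BH-HF-KO against 8950 to 9790 CPM in BH-HF-WT livers. Of the 11 male-biased genes, 5 fell in H-KO livers, Cyp4a12a (-8.02) and Mup20 (-5.28) most, and 3 fell without H-KO library 1. In BH-KO livers 0 of the 11 passed, and 4 fell without BH-KO library 1. In BH-HF-WT compared with BH-WT livers 4 rose, Hsd3b5 (6.73) and Cyp4a12b (5.86) most, a count that was 0 without BH-WT library 2 or without BH-WT library 3 and 2 without BH-WT library 1, BH-HF-WT library 1 or BH-HF-WT library 2. Of the 12 female-biased genes, 1 rose (Cyp17a1, 4.28) and 3 fell in H-KO livers, against 4 and 0 without H-WT library 3. No fall was left without any 1 of the H-KO libraries. In BH-KO livers 3 of the female-biased genes fell, against 1 without BH-KO library 2, BH-KO library 3 or BH-WT library 2. In BH-HF-WT compared with BH-WT livers 6 fell, against 3 without BH-HF-WT library 3 or BH-WT library 2. Of all genes, 34.9% passed in H-KO livers, 28.6% in BH-KO livers and 6.99% in BH-HF-WT compared with BH-WT livers. Without BH-KO library 1 the BH-KO share was 41.0%, and without H-WT library 3 the H-KO share was 27.8%. The part of sex-biased expression in the Elovl3 results was not tested.

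**Figure D3:**
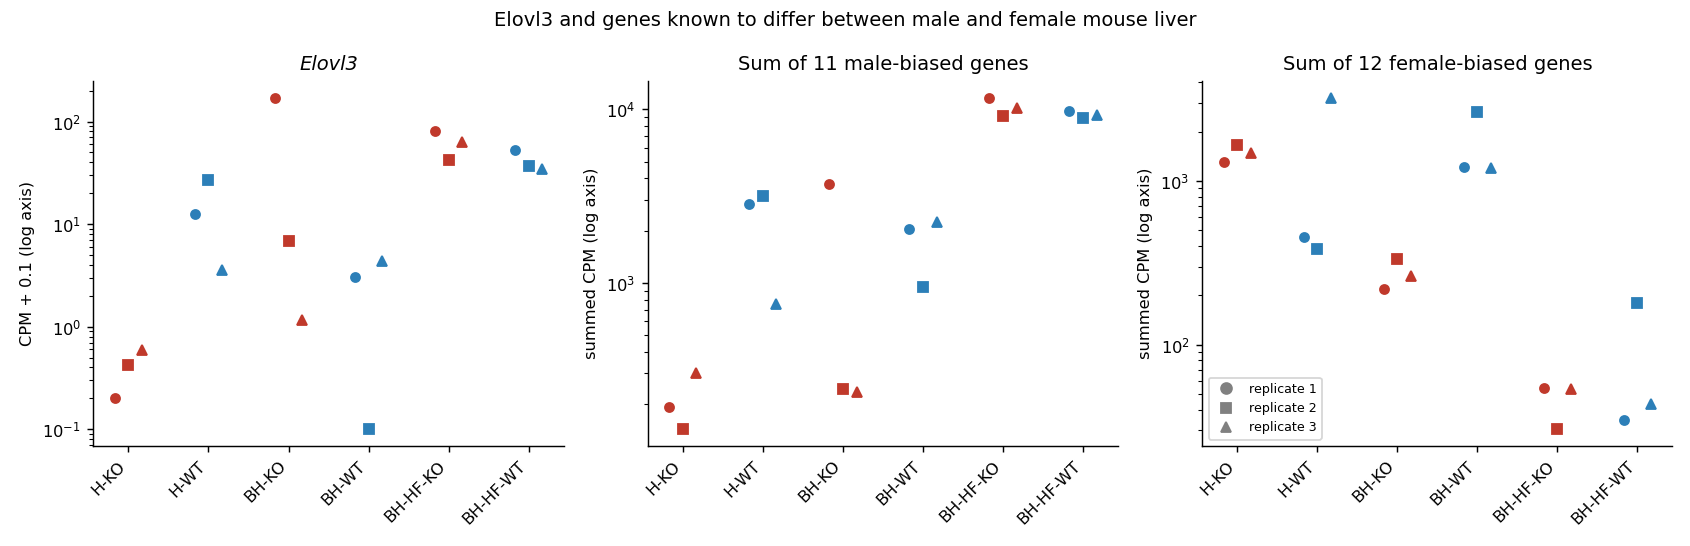
Elovl3 as CPM plus 0.1 (left, log axis) and the summed CPM of 11 male-biased (middle) and 12 female-biased genes (right, log axes) in each library, with circle, square and triangle for libraries 1, 2 and 3, KO groups red and WT groups blue. BH-KO library 1 is high in the left and middle panels (171 and 3720 CPM), and H-WT library 3 and BH-WT library 2 are the highest points of the right panel (3230 and 2640 CPM).

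Genes with the most similar pattern were found by the root mean square difference of centred log2 CPM over the 18 libraries, among 9366 genes with a mean of at least 5 CPM. For Elovl3 they were Slco1a1 (1.05), a male-biased organic anion transporter, and the major urinary proteins Mup21 (1.34) and Mup20 (1.5), where the SD of Elovl3 itself was 2.88. Slco1a1 and Mup20 are also on the male-biased list. For Fads2 they were the amino acid transporter Slc38a3 (0.39), Shmt2 (0.41) and Fam107b (0.43), against an SD of 1.48. For Fads6 they were Arl6ip1 (0.18), Slc25a13 (0.19) and Pglyrp2 (0.19), against an SD of 0.89, and for Elovl5 the acyl-CoA synthetase Acsl5 came first (0.30, SD 0.74). Fads3 had no close match (Coq10b at 0.63, SD 1.08).

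Among the members, Elovl1, Elovl2 and Fads1 were the most alike by the same measure (0.24 to 0.26 between each pair). Fads2 was 1.09 from its neighbour Fads1 and 1.01 from its neighbour Fads3, and 0.72 from Fads6 on another chromosome. Elovl3 was 2.29 to 2.85 from each other member. The measure grows with unlike sizes of variation as well as with unlike patterns. The SDs were 2.88 for Elovl3, 1.48 for Fads2, 1.08 for Fads3, 0.89 for Fads6, 0.74 for Elovl5, 0.57 for Elovl2, 0.49 for Fads1 and 0.46 for Elovl1. A large distance, as between Fads2 and Fads1, thus does not show that the genes moved in different directions. These distances share the same 18 libraries and their depth, and are a description.

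Ratios within a library set the earlier and later desaturase of the pathway, and its elongases, beside each other. The Fads2 over Fads1 ratio, per kilobase, was 0.218, 0.234 and 0.204 in H-KO livers, against 0.954, 0.757 and 0.658 in H-WT livers. It was 0.409, 0.0829 and 0.234 in BH-KO livers, against 0.667, 0.691 and 0.712 in BH-WT livers, and 1.21, 0.823 and 0.884 in livers labelled BH-HF-KO, against 1.47, 1.06 and 0.956 in BH-HF-WT livers. The KO and WT ranges did not overlap in the 10-week lines, and overlapped in BH-HF livers. The Elovl2 over Elovl5 ratio was 1.90 ± 0.18 in H-KO livers and 1.01 ± 0.155 in H-WT livers, again without overlap. It overlapped in BH livers (1.65 ± 0.28 in BH-KO and 1.54 ± 0.361 in BH-WT) and in BH-HF livers (2.28 ± 0.663 for livers labelled BH-HF-KO, 1.88 ± 0.875 for BH-HF-WT livers, SD, n = 3 each). The differences in these ratios were not tested.

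**Figure D4:**
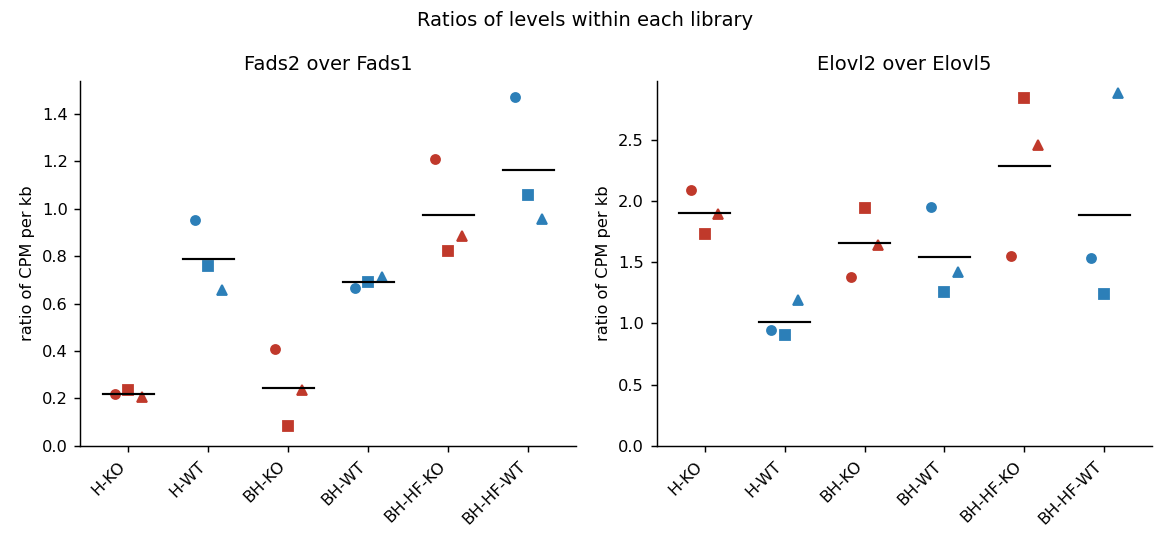
Ratio of CPM per kb within each library for Fads2 over Fads1 (left) and Elovl2 over Elovl5 (right), linear axes from 0, with circle, square and triangle for libraries 1, 2 and 3, black lines for group means, KO groups red and WT groups blue. Fads2 over Fads1 is at most 0.409 in H-KO and BH-KO livers and at least 0.658 in every other library.

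Other genes of fatty acid lengthening and desaturation moved both ways in H-KO livers, where 34.9% of all genes passed and 19.1% passed as lower. Of 7 other elongases and desaturases, 4 passed the filter, of which Elovl7 (4.34 ± 0.82) and Elovl6 (0.78 ± 0.15), elongases of saturated chains, rose and Scd1 (-3.58 ± 0.64), the main hepatic desaturase of saturated chains, fell. In BH-KO livers 0 of the 4 passed with all libraries, and 1 rose and 2 fell without BH-KO library 1. Of 10 partner enzymes of the elongation cycle and electron donors, 3 rose in H-KO livers, Hacd2 (1.28 ± 0.08) and Cyb5r1 (0.90 ± 0.26) most, and 4 fell, Cyb5r3 (-1.65 ± 0.29) and Hsd17b12 (-1.0 ± 0.24) most. Hacd2 dehydrates the acyl chain in the elongation cycle, Hsd17b12 reduces it, and Cyb5r3 feeds electrons to cytochrome b5. The rises were 1 without H-WT library 2 and 2 without any other library of the comparison. Hacd2 alone rose in BH-KO livers (0.88 ± 0.08, adjusted p = 5.29e-06) and none fell, against 4 and 4 without BH-KO library 1. Over all genes, 28.6% passed in BH-KO livers with all libraries and 41.0% without that library. The list medians in H-KO livers were 0.04 for the other elongases and desaturases and -0.07 for the partner enzymes, against 0 over all genes.

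Among regulators of the pathway and peroxisomal genes, falls outnumbered rises in both 10-week lines. Over all genes, 34.9% passed in H-KO livers, 19.1% as lower, and 28.6% passed in BH-KO livers, 14.2% as lower. Of 14 genes of SREBP1c, LXR and PPAR control, 8 fell and 2 rose in H-KO livers (median -0.62), led by Insig1 (-3.42 ± 0.53), which retains SREBPs, and Ppara (-2.51 ± 0.39), with Insig2 (1.51 ± 0.28) and Mbtps1 (0.43 ± 0.10) as the rises. In BH-KO livers 10 fell and 2 rose (median -0.82), with Ppara (-2.14 ± 0.39) and Insig1 (-1.77 ± 0.50) the largest falls and Insig2 (1.98 ± 0.28) the largest rise. Of 9 peroxisomal genes of the last step to docosahexaenoic acid, 7 fell in H-KO livers, Acaa1b (-1.61 ± 0.37) and Scp2 (-1.5 ± 0.30) most, and 5 fell in BH-KO livers, Acaa1b (-1.60 ± 0.37) and Acaa1a (-1.38 ± 0.18) most, and none rose in either.

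Of 9 genes of fatty acid synthesis, 4 rose in H-KO livers, Pnpla3 (4.67 ± 0.78) and Acacb (1.79 ± 0.59) most, and Acss2 fell (-1.26 ± 0.21). The rises were 2 or 3 on leaving out any 1 library, 2 of them without H-KO library 1 or 3 and without H-WT library 1 or 2. In BH-KO livers none rose and 2 fell, Thrsp (-3.35 ± 0.39) and Fasn (-1.23 ± 0.37), with 1 fall left without BH-KO library 2, BH-KO library 3 or BH-WT library 3. The difference of the effects passed for 3 of the 9, 1 higher and 2 lower, where 6.09% of all genes passed. For the KO effects themselves, 34.9% of all genes passed in H-KO livers and 28.6% in BH-KO livers.

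Of 11 tested genes (of 15) that activate and place polyunsaturated chains, 4 fell and Acsl4 (1.15 ± 0.23), which activates arachidonic acid, rose in H-KO livers. Fabp1 (-4.86 ± 0.76), the liver fatty acid binding protein, and Mfsd2a (-4.11 ± 0.75), a carrier of lysophospholipids with docosahexaenoic acid, fell most. In BH-KO livers Acsl4 rose as well (1.49 ± 0.23) and 4 fell, Fabp1 (-2.53 ± 0.68) and Mfsd2a (-2.01 ± 0.68) most, with 2 falls left without BH-KO library 2 or 3 or BH-WT library 1 or 2. Of 9 tested genes (of 11) of ceramide synthesis, Ugcg (-1.32 ± 0.19) and Sptlc1 (-0.60 ± 0.15) fell and Degs1 (0.34 ± 0.13) rose in H-KO livers, a rise that was lost without each library of the comparison except H-WT library 3. In BH-KO livers Ugcg (-0.60 ± 0.19) fell and Degs1 (0.38 ± 0.13) rose, with no fall left without BH-KO library 2 or 3 or any 1 BH-WT library, and no rise left without BH-KO library 2 or 3 or BH-WT library 2 or 3. Over all genes, 34.9% passed in H-KO livers, 19.1% as lower, and 28.6% passed in BH-KO livers, 14.2% as lower. The share of tested ceramide genes that passed was not above that of all genes in either line.

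Of 19 clock genes, 7 fell and none rose in H-KO livers, while 9 fell and 6 rose in BH-KO livers, Npas2 (8.10 ± 0.67) and Arntl (5.00 ± 0.43) the largest rises and Bhlhe41 (-4.69 ± 0.55) and Dbp (-4.48 ± 0.33) the largest falls. The difference of the effects passed for 13 of the 19, where 6.09% of all genes passed. In H-KO livers 34.9% of all genes passed, and in BH-KO livers 28.6%. No gene of any of these lists passed in the libraries labelled BH-HF-KO. Adipocyte markers, listed because Elovl3 is abundant in brown fat, summed to 2.72 to 4.71 CPM in H-KO livers and to at most 1.5 CPM in any other library. Only 1 of the 7 passed the filter, and it rose in H-KO livers (7.72). A rise of 1 marker was also called without any 1 library of that comparison, and 1 marker fell without H-WT library 2 or 3. Ucp1, the defining gene of brown fat, was at 0 in all but 1 library, where it was at 0.0972 CPM, and was at 0 in BH-KO library 1.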

How the data were processed

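Total RNA of 18 mouse livers was sequenced, and the authors deposited a table of raw counts per gene, with alignment by STAR 2.6 to mm10 per the submitters' processing notes. Of the counter, the annotation and the strand setting nothing is stated in the sources at hand. Groups and replicate numbers come from the labels, and replicates are biological per the series' design text.

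All 6 groups were fitted together in edgeR 4.0.16 (R 4.3.3) with TMM factors and the quasi-likelihood test, with genes filtered by filterByExpr (10 counts as minimum), leaving 13958 to test and 38678 IDs untested. The spread was thus shared over 12 residual degrees of freedom, p-values were adjusted over all genes tested by Benjamini-Hochberg, and the test was first tested on simulated data. CPM values are divided by TMM-scaled totals, and log2 CPM used a prior count of 2. Lengths are exon unions of GENCODE mm10 gene models, so levels per kb do not follow the isoforms in use. Alternatives were other size factors and filters, limma-voom (limma 3.58.1), DESeq2 1.42.0, a replicate block, a threshold of 0.01, the compared groups alone, and each library left out. The pair of libraries that stood apart was left out together, and each library was left out for the gene lists, as choices made after seeing the data. All 8 genes are named, and of each list at most 2 genes that rose and 2 that fell, those with the largest changes. The genes and lists were chosen with earlier results of these data known. Precision is limited by 3 livers a group.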

Additional observations from a re-analysis of the deposited data

Results flagged for a closer look

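The KO effect differed between the lines for 2 genes, by the test of the difference itself in edgeR's fit. For Elovl3 the BH effect minus the H effect was 10.15 on the log2 scale, with the BH-KO libraries at 171, 6.74 and 1.06 CPM and the H-KO libraries at 0.1, 0.324 and 0.486 CPM. The BH-WT libraries were at 2.94, 0 and 4.31 CPM and the H-WT libraries at 12.5, 26.7 and 3.49 CPM. That call was lost in 5 of 12 fits that left out a library. For Fads6 the difference was 1.04, with the BH-KO libraries at 122, 67.7 and 67.7 CPM and the H-KO libraries at 54.3, 35.5 and 39.0 CPM. The BH-WT libraries were at 185, 144 and 180 CPM and the H-WT libraries at 182, 173 and 170 CPM. The Fads6 call was lost in 8 of 12 fits that left out a library. Both calls were lost with only the compared groups fitted.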

How the results depend on the processing

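Over all alternatives, 966 of 1104 values of single genes kept their direction and side of the threshold, 59 lost a call, 31 gained one and 48 changed sign, none of these called. Only 268 of the 1104 values belonged to results called in the fit of all libraries. Of these 268, 209 kept the call and 59 lost it. The causes were not tested. For BH-KO against BH-WT livers 4 genes passed, against 2 with no filter on low counts, 2 at 0.01 and 1 with these groups alone. For the BH minus H effect 2 passed, against 1 with no filter, 0 at 0.01, 1 with limma-voom, 0 with the groups alone, 3 with DESeq2 and 1 without both libraries that stood apart. For BH-KO against H-KO 2 passed, against 1 at 0.01, 1 with limma-voom, 0 alone and 1 without both. For the BH-HF minus BH effect 0 passed, against 1 with upper-quartile factors, 1 with limma-voom, 1 with DESeq2 and 4 without both. For BH-HF-WT against BH-WT 0 passed, against 1 with DESeq2 and 1 alone.

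Leaving out a library gave 7 to 8 genes passing for H-KO, 2 to 5 for BH-KO, 0 to 0 for BH-HF-KO, 0 to 3 for BH minus H, 0 to 4 for BH-HF minus BH, 1 to 6 for BH-KO against H-KO, and 0 to 0 for both WT comparisons. Same-numbered libraries correlated from -0.25 to 0.13, and 1 of 18 pairs exceeded 0.1, so the numbers were not taken as pairs. With a replicate block, 3 genes passed for BH-KO, where Elovl3 was lost (3.92, adjusted p = 0.0756), and 2 for BH-HF minus BH, Fads2 (1.79) and Fads6 (1.0); Elovl5 was then at 0.09 there and Fads3 at -0.10 in BH-HF-KO.

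Fads3 in BH-HF-KO was 0.00 with upper-quartile factors, -0.02 with no filter and -0.08 with limma-voom. Elovl5 for BH-HF minus BH was 0.00 with DESeq2's size factors and test, 0.14 with limma-voom and 0.66 without both libraries. Without both, BH minus H was -0.10 for Elovl1 and -0.14 for Fads3, BH-WT against H-WT was 0.03 for Elovl2 and 0.08 for Fads1, and BH-KO against H-KO was -0.09 for Fads2. Leaving out a library gave, for BH-HF-KO, -0.11 to 0.06 for Elovl1, -0.05 to 0.14 for Elovl2, -0.12 to 0.13 for Fads1, -0.51 to 0.08 for Fads2, -0.43 to 0.62 for Fads3 and -0.07 to 0.03 for Fads6. It gave -0.38 to 0.66 for Elovl5 in BH-HF minus BH, -0.14 to 0.79 for Fads3 in BH minus H, and -0.09 to 1.15 for Fads2 in BH-KO against H-KO. For BH-HF-WT against BH-WT it gave -0.09 to 0.18 for Elovl1, -0.02 to 0.37 for Fads1 and -0.35 to 0.60 for Fads3. For BH-WT against H-WT it gave -0.03 to 0.25 for Elovl1, -0.27 to 0.10 for Elovl2, -0.42 to 0.08 for Fads1 and -0.12 to 0.06 for Fads6.

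Over all genes, 3990 passed for BH-KO (1094 alone, 1819 at 0.01), 4870 for H-KO (2972 at 0.01), 850 for BH minus H (516 with no filter, 162 at 0.01, 1394 with DESeq2, 490 alone), 851 for BH-HF minus BH (206 at 0.01, 1315 with DESeq2, 431 alone), 23 for BH-WT (35 with no filter, 14 with the block, 6 at 0.01, 12 with limma-voom, 101 with DESeq2), 2293 for BH-KO against H-KO (911 at 0.01, 919 alone) and 976 for BH-HF-WT (160 at 0.01, 1495 with DESeq2). Leaving out a library gave 2329 to 5917 for BH-KO, 347 to 1248 for BH minus H, 353 to 3047 for BH-HF minus BH, 1190 to 2341 for BH-KO against H-KO, 7 to 18 for BH-WT and 220 to 1019 for BH-HF-WT.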
